A study of Mus musculus with 12 samples.

Results

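Mouse bone marrow-derived macrophages (BMDMs) that had been polarized with interferon gamma (IFNG) were compared with the same kind of cells polarized with interleukin-4 (IL4), in libraries of total mRNA. The comparison was defined by the sample titles alone and took 6 of the 12 samples of the series, 3 with each cytokine. The macrophages came from the marrow of naive female FVB mice. One group received IFNG at 200 units/mL and the other IL4 at 40 ng/mL, each for 4 h, and both were sequenced as SmartSeq2 libraries, a full-length cDNA method for small amounts of RNA. The remaining 6 samples hold polysome-associated mRNA, taken from lysates of the same cell preparations on a sucrose gradient. No unpolarized macrophages are among the samples, so "higher with IFNG" always means relative to IL4, and a difference cannot be assigned to one cytokine or the other. Whether the replicates were separate mice or separate cultures is not stated by the labels. All 12 samples were fitted together, so the p-values rest on the spread among replicates of both total and polysome-associated mRNA. Because the source of the replicates is not stated, that spread may be technical. The fit also took total and polysome-associated libraries of the same preparations as independent of each other. In such bulk libraries, fewer cells of a type and less RNA per cell cannot be told apart.

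IFNG binds a receptor of IFNGR1 and IFNGR2 chains and signals through Janus kinases. Promoters of its target genes are known for palindromic GAS elements, and IRF1 and other factors that it induces act through interferon-stimulated response elements (ISRE). IL4 binds the IL4RA chain, paired with the common gamma chain IL2RG or with IL13RA1, and activates STAT6, which prefers a palindrome with a longer spacer. In macrophages these routes are known as the classical and the alternative activation programmes, with inducible nitric oxide synthase and arginase as their usual markers. The account below goes through the transcriptome by gene family: transcription factors, receptors, signalling proteins, secreted regulators, enzymes and transporters.

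The 6 libraries held between 10443200 and 22014162 counts, and 3 counts in a library correspond to between 0.184 and 0.349 CPM, the usual library-scaled count, here with TMM scaling factors. All 13 macrophage markers examined were tested, and their summed level was 20004 to 30836 CPM with IFNG and 8699 to 15492 CPM with IL4; 6 were higher with IFNG, Fcgr1, Aif1, C1qa, C1qb, C1qc and Mpeg1. Lists of other marrow cells differed in level. The 8 T and NK cell markers in the files summed to at most 0.349 CPM in any library, the 7 of mast cells and basophils to at most 0.580 CPM and the 3 of erythroid cells to at most 0.173 CPM. B cell markers summed to at most 6.21 CPM, with Ms4a1 and Pax5 at 0, and stromal markers to at most 12.6 CPM. Megakaryocyte markers summed to 336 to 767 CPM with IFNG and 528 to 1105 CPM with IL4, nearly all of it Pf4, which was not called (adjusted p = 0.563). Neutrophil markers summed to 10.6 to 33.6 CPM with IFNG and 1.33 to 4.97 CPM with IL4. Of the 10, 3 passed the filter on low counts and 1 of these, S100a9, was called higher. In replicates 1, 2 and 3, S100a9 was at 1.46, 1.40 and 15.5 CPM with IFNG and at 0, 0 and 0.0633 CPM with IL4. IFNG replicate 3 was thus far above the other libraries. Dendritic cell markers summed to 8.50 to 26.9 and 0.797 to 2.03 CPM, through Xcr1 and Clec9a, the 2 of 10 that were tested, both called higher, while Flt3 and Btla were at 0 in all 6 libraries. The part of such cells in the results was not tested. The first principal component over the 6 libraries took 58.2% of the variance and separated the cytokines, and the second took 25.1% and set replicate 3 of both groups apart from replicates 1 and 2.

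Of 10421 features tested with edgeR's quasi-likelihood method, 1148 (11.0%) were called at an adjusted p under 0.05. With IFNG, 738 (7.08%) were higher and 410 (3.93%) were lower, and these shares are the background for the family counts that follow. Of the higher features 449, and of the lower ones 181, were also called in each of the 6 fits that left out 1 library; these are called robust below. Leaving out IFNG replicate 2 brought the lower count to 239. All 1148 differed by at least 2-fold. At least 8-fold differences were found for 268 higher and 127 lower features, and at least 64-fold differences for 86 higher and 29 lower ones. The direction of the calls changed with the level of the gene: among features with a mean of 1 to 10 CPM, 4.69% were higher and 4.85% lower, whereas among those with 100 to 1000 CPM 12.5% were higher and 1.81% lower. The median log2 difference over all tested features was 0.04 (IFNG minus IL4).

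**Figure D1:**
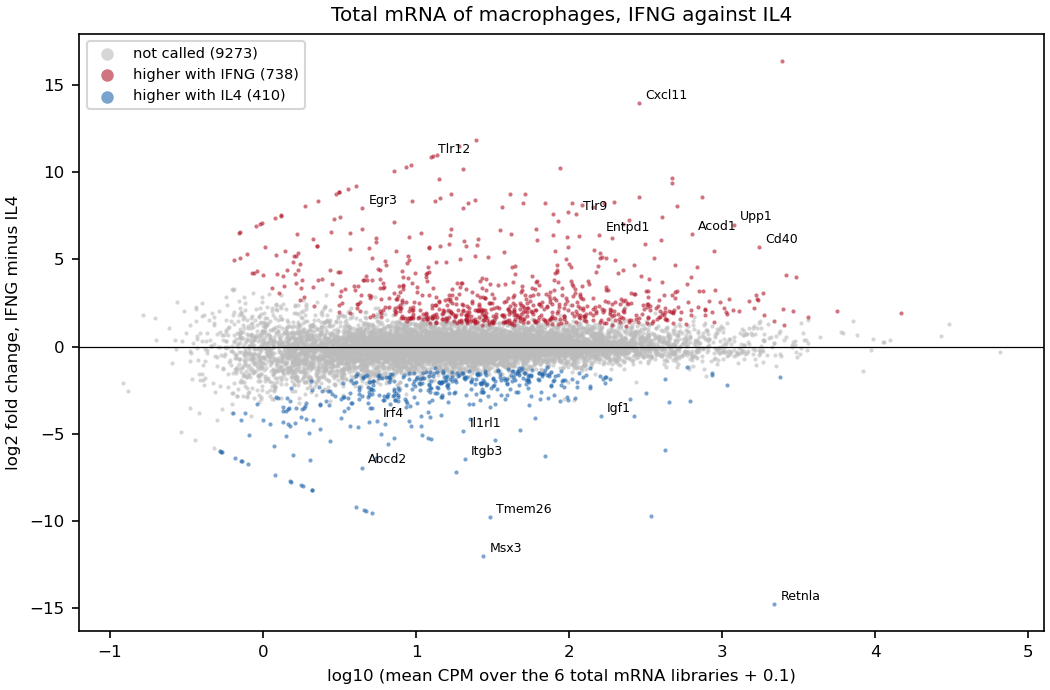
Log2 fold change (IFNG minus IL4) of each of the 10421 tested features against log10 of the mean CPM over the 6 total mRNA libraries plus 0.1; each point is a feature, coloured by the call. Of features with a mean of 1 to 10 CPM 150 were higher and 155 lower, and of those with 100 to 1000 CPM 194 were higher and 28 lower.

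Genes named below were chosen by rule as the largest robust differences of each family. The rule also required that the 3 IFNG libraries and the 3 IL4 libraries did not overlap. Over all tested features, 13.4% were higher and 12.3% lower with IFNG without overlap. Values are CPM in replicates 1, 2 and 3 of the IFNG group against those of the IL4 group, log2 differences are IFNG minus IL4 with the standard error of the fit (± SE), and positions are those of RefSeq on GRCm38.p6. In all, 2005 of the tested features belonged to 1 or more of 42 families, and of these 303 were higher and 124 lower.

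Of the receptor chains for the cytokines, Il13ra1 and Il2rg were called, and Ifngr1, Ifngr2 and Il4ra were not. The IFNG-binding chain Ifngr1 was at 44.4, 38.1 and 47.8 against 36.8, 62.8 and 51.6 CPM, a log2 difference of -0.21 ± 0.41 that was not called (adjusted p = 0.872). Its partner Ifngr2 was at 573, 431 and 230.2 against 221, 249 and 144 CPM and was not called either (1.01 ± 0.54, adjusted p = 0.300). Il4ra, the IL4-binding chain, did not overlap between groups but missed the threshold. It was at 131, 253 and 83.5 against 82.8, 40.0 and 49.2 CPM, a difference of 1.44 ± 0.51 (adjusted p = 0.0732). It passed without IFNG replicate 3 (adjusted p = 0.0312) and with no filter on low counts (adjusted p = 0.0205). Both partner chains of Il4ra were higher with IFNG. Il13ra1 (chromosome X, 36112108 to 36171262) was at 8.43, 26.6 and 48.8 against 0.943, 0.245 and 0.316 CPM, 5.79 ± 0.71 on the log2 scale (adjusted p = 4.03e-06). Il2rg was at 1504, 1715 and 1725 against 355, 303 and 195 CPM (2.54 ± 0.42, adjusted p = 2.11e-04). The IL4 libraries were all under 1 CPM in Il13ra1, while the IFNG libraries ranged widely, with replicate 3 highest.

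Among the kinases, Jak2 was higher with IFNG at 14.6, 22.3 and 21.8 against 6.16, 3.43 and 7.53 CPM (1.78 ± 0.48, adjusted p = 0.0151). It was not called when IFNG replicate 2, IL4 replicate 1 or IL4 replicate 2 was left out, with an adjusted p between 0.0505 and 0.111. Tyk2 differed by 1.05 ± 0.42 and was not called (adjusted p = 0.121), except without IFNG replicate 3 (adjusted p = 0.0300). Jak1, Jak3 and Stat6 were counted together with a neighbouring gene in joined features and have no value of their own. The feedback genes of the pathway split by cytokine. Socs3, an inhibitor of Janus kinases, was at 56.9, 55.5 and 34.3 against 9.06, 2.64 and 2.34 CPM (3.39 ± 0.56, adjusted p = 1.82e-04). Usp18, which restrains the type I interferon receptor, was at 313, 423 and 225 against 4.28, 13.4 and 9.42 CPM (5.15 ± 0.63, adjusted p = 4.03e-06). Cish and Socs2, both STAT5 targets in other cells, lay on the other side. Cish was at 0.317, 1.05 and 0.345 against 4.50, 18.1 and 12.9 CPM (-4.43 ± 0.78, adjusted p = 3.71e-04). Socs2 was at 0.0634, 0.814 and 0.173 against 2.18, 18 and 3.35 CPM (-4.61 ± 0.99, adjusted p = 0.00275). IL4 replicate 2 was the highest library in both. Socs1, another inhibitor of Janus kinases, was at 40.0, 272 and 201 against 12.5, 24.7 and 60.3 CPM. Its groups overlapped and it was not called (2.39 ± 0.96, adjusted p = 0.142). It was called with the replicate number as a block (adjusted p = 0.00107), with the 6 libraries alone (adjusted p = 0.0298) and with no filter on low counts (adjusted p = 1.23e-05). Of the 22 tested members of the Janus kinase and feedback list, 5 were higher (3 robust) and 3 lower (2 robust).

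Of the 13 tested transcription factors of the interferon regulatory and STAT families, 6 were higher with IFNG (5 robust), 1, Irf4, was lower and 6 were not called, with a median log2 difference of 1.27. Irf7, the amplifier of type I interferon responses, was at 687, 1053 and 352 against 23.7, 22.1 and 15.1 CPM, 5.10 ± 0.56 (adjusted p = 8.20e-07). Stat2, a subunit of the ISRE-binding complex ISGF3, was at 61.1, 121 and 88.7 against 6.67, 11.4 and 6.39 CPM (3.46 ± 0.47, adjusted p = 1.88e-05). In both genes IFNG replicate 2 was the highest library. Irf4 (chromosome 13, 30749233 to 30766981), a factor known from alternative activation and lymphocyte differentiation, was at 0.698, 0.582 and 0.259 against 4.79, 17.4 and 8.98 CPM, -4.29 ± 0.78 (adjusted p = 5.22e-04). All its IFNG libraries were under 1 CPM.

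Promoters of factors of these lists with a match to the searched motifs show what such matches look like. The windows are the 250 bases before the RefSeq start site, all on the plus strand, printed 5′ to 3′ in lower case with every match of the GAS, ISRE and STAT6 types in capitals. Irf1 (chr11:53769764-53770013), one of 2 start sites in the table, carries a GAS type match, and Stat2 (chr10:128270248-128270497) an ISRE type match that reads on the minus strand, followed by one of the STAT6 type. No lower factor named by the rule had a match of the STAT6 type. The lower genes shown are therefore Retnla (chr16:48842359-48842608), the alternative activation marker, and Tmem26 (chr10:68723496-68723745), a transmembrane protein. They had the largest differences among all named lower genes with such a match and were chosen after their values were seen.
Irf1: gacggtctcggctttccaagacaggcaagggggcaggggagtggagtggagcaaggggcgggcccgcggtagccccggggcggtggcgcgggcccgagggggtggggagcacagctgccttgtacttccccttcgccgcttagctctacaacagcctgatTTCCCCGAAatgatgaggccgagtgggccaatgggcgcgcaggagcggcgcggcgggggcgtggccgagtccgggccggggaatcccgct
Stat2: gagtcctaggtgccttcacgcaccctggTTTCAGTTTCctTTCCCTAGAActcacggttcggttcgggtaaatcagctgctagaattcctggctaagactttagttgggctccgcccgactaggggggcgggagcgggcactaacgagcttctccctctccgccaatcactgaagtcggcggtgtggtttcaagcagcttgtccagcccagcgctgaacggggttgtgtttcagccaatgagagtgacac
Retnla: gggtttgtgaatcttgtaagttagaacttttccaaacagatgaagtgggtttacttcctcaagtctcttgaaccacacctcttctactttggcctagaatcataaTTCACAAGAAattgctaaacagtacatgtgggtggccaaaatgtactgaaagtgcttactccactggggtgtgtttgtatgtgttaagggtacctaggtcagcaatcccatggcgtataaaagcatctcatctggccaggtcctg
Tmem26: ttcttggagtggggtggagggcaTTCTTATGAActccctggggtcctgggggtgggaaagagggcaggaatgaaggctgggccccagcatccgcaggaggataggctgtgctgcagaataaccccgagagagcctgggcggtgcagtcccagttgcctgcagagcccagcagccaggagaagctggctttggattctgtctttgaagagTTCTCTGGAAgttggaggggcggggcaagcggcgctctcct

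The same motifs were counted on both strands in windows of 250 bases before to 50 after the start, which matched 7615 of the 9748 tested features that carry a single gene symbol. The ISRE type, GAAA followed by any 2 bases and a second GAAA, occurred in 14.8% of the 534 genes higher with IFNG, in 3.69% of the 298 lower ones and in 3.33% of the 6783 not called. It was in 3.44% of all 32851 windows of the table. A gene counted if any of its windows matched, so the shares of genes and of windows here and below are unlike measures. Higher genes had a mean of 1.33 windows, lower ones 1.24 and those not called 1.27. For the GAS type, TTCNNNGAA, the shares were 12.2%, 8.72% and 8.21%, with 8.30% of all windows. The palindrome with 1 more base, TTCNNNNGAA, was in 10.1% of the lower genes, 7.12% of the higher ones and 6.32% of those not called, with 6.95% of all windows. An AP-1 type motif, TGANTCA, was in 11.6% of the higher and 10.1% of the lower genes against 5.54% of those not called and 7.81% of all windows. The E-box CACGTG was in 12%, 10.4% and 12.3%, and in 7.15% of all windows. Higher genes had a median GC content of 57.3% in these windows, lower genes 59.8% and genes not called 61%; the part of base composition in the shares was not tested. A match is a string of letters in a window and shows no binding.

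**Figure D2:**
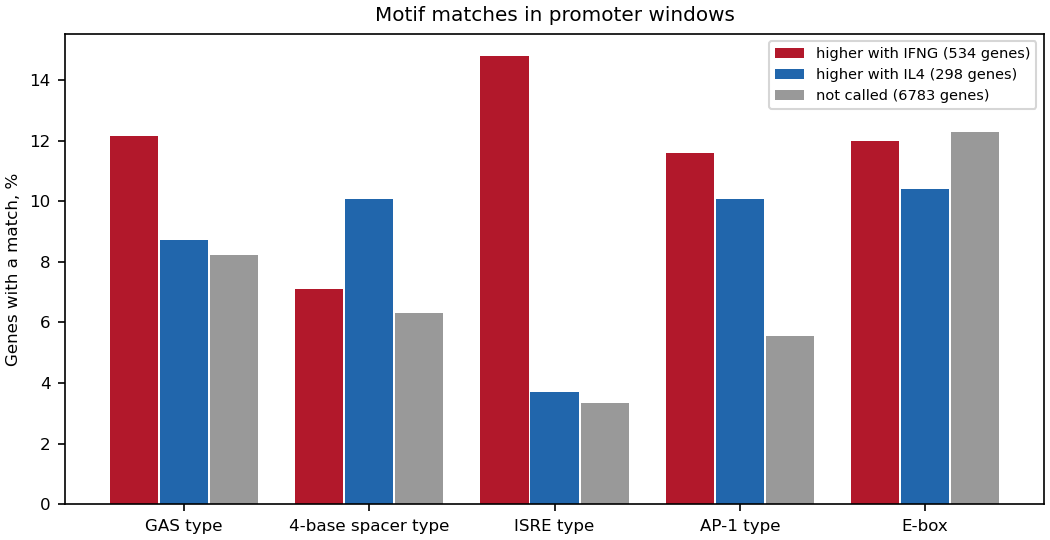
Share of genes (%) with at least 1 match in their promoter windows, for 5 motifs and for genes higher with IFNG, genes higher with IL4 and genes not called; bars start at 0 and carry no error. The ISRE type bar of the genes higher with IFNG stands furthest from the genes not called, and the E-box bars are close to one another.

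Early-response zinc finger factors of the EGR family went in opposite directions. Egr3 (chromosome 14, 70077317 to 70082613) was at 2.54, 11 and 12.5 against 0, 0.0613 and 0 CPM. It had 280 counts over the IFNG libraries against 1 over the IL4 libraries, a ratio of 358 after scaling (95% counting interval 63.7 to 14176; adjusted p = 1.60e-05). Egr2 was at 7.04, 13.7 and 9.33 against 53.2, 123 and 27.3 CPM, -2.76 ± 0.59 (adjusted p = 0.00244). Every IL4 library was above every IFNG library in Egr2 and below in Egr3, a separation that the naming rule required. Over the 18 tested KLF, SP and EGR factors 3 were higher and 3 lower, and Egr3 and Egr2 were the robust ones. Counting intervals here and below cover counting error only.

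The AP-1, ATF, CREB and BATF list had 6 higher members of 37 (4 robust) and 1 lower, with a median of 0.40; the lower count was 3 with the replicate block. Batf2, which partners IRF factors, was at 301, 423 and 297 against 11.5, 13 and 6.20 CPM (5.06 ± 0.49, adjusted p = 1.68e-07). Jdp2, a Jun-dimerizing repressor, was at 8.81, 32.1 and 15 against 0.580, 0.919 and 1.45 CPM (4.21 ± 0.67, adjusted p = 1.26e-04). Creb5 was at 81.6, 184 and 236 against 31.7, 21.4 and 28.6 CPM (2.62 ± 0.44), and the small MAF protein gene Mafk was at 68.9, 55.5 and 44.3 against 19.8, 17 and 11.8 CPM (1.79 ± 0.43). ETS and RUNX factors also split. Runx3 was higher at 5.33, 8.26 and 7.60 against 0.290, 0.919 and 1.01 CPM (3.22 ± 0.65). Elk3 was higher as well, at 118, 194 and 166 against 33.9, 24.3 and 28.5 CPM (2.46 ± 0.40), whereas Etv1, an ETS factor, was lower at 2.47, 3.02 and 5.44 against 14.9, 25.4 and 36.3 CPM (-2.81 ± 0.49, adjusted p = 3.24e-04). Vdr, the vitamin D receptor, was the robust nuclear receptor of 26 tested, at 6.98, 10.6 and 8.55 against 0.870, 0.429 and 0.253 CPM (4.05 ± 0.66, adjusted p = 1.58e-04).

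The NF-kB, helix-loop-helix and forkhead lists each had at most 2 robust members. Among 17 NF-kB subunits and inhibitors 3 were higher (2 robust; 5 with the replicate block) and 0 lower. Nfkbiz, an atypical inhibitor that acts as a nuclear cofactor, was at 131, 230.0 and 97.8 against 15.2, 7.11 and 1.90 CPM (4.24 ± 0.65, adjusted p = 7.99e-05). Tnfaip3, the gene of a deubiquitinase that limits NF-kB, was at 15.5, 22.2 and 25.8 against 4.35, 4.84 and 3.16 CPM (2.36 ± 0.46, adjusted p = 0.00104). Of 36 basic helix-loop-helix factors and ID proteins 3 were higher and 4 lower. The robust one was Mxd1, a MAX partner that opposes MYC, at 25.5, 44.4 and 31 against 5.44, 6.31 and 6.83 CPM (2.44 ± 0.43). The forkhead, SMAD and homeobox list had 6 higher and 0 lower members of 35, of which 2 were robust. Pou2f2, a POU factor, was at 25.7, 44.8 and 25.3 against 5.51, 6.50 and 1.77 CPM (2.79 ± 0.53). Smad6, an inhibitor of BMP signalling, was at 13.8, 15.5 and 9.50 against 2.90, 1.59 and 2.97 CPM (2.37 ± 0.55).

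Cytokine receptors were more often higher with IFNG. Of the 38 tested, 10 were higher (9 robust) and 3 lower (1 robust), with a median of 0.40. Both chains of the interleukin-12 receptor were among them. Il12rb1 was at 131, 262 and 87.9 against 9.06, 4.54 and 4.87 CPM (4.70 ± 0.58, adjusted p = 5.03e-06) and Il12rb2 at 14.1, 43.3 and 28.8 against 3.70, 3.37 and 4.11 CPM (2.94 ± 0.48, adjusted p = 1.66e-04). Il15ra, which presents interleukin-15 to neighbouring cells, was at 12.9, 20.8 and 18.2 against 0.508, 0.490 and 0.633 CPM (4.96 ± 0.56, adjusted p = 1.24e-06). The robust lower member was Il1rl1 (chromosome 1, 40404864 to 40465418), the receptor for interleukin-33, at 0.951, 2.56 and 0.691 against 28.3, 41.6 and 47.4 CPM, -4.84 ± 0.59 (adjusted p = 4.24e-06).

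In the TNF superfamily 7 of 22 tested members were higher (5 robust) and 3 lower (all 3 robust). Cd40 (chromosome 2, 165055614 to 165071654), the receptor for T-cell help, was at 3448, 4775 and 2093 against 73.5, 70.7 and 52.4 CPM, 5.71 ± 0.61 (adjusted p = 6.55e-07). Among the ligands, Tnfsf10 (TRAIL) was at 19.6, 39.9 and 41 against 0.0725, 0.245 and 0.569 CPM (6.74 ± 0.65). Tnfsf13b (BAFF) was at 15.2, 12.8 and 22.3 against 0.0725, 1.04 and 0.633 CPM (4.79 ± 0.68), and Tnf at 1139, 1755 and 628 against 136, 56.2 and 29.4 CPM (3.99 ± 0.63). All 3 were higher with IFNG. Tnfrsf26, Tnfrsf22 and Tnfrsf23 lie side by side on chromosome 7, between 143607685 and 143686436, and Tnfrsf22 and Tnfrsf23 encode decoy receptors for TRAIL. Tnfrsf26 was at 0.888, 1.28 and 2.33 against 9.86, 12.1 and 11.9 CPM (-2.91 ± 0.58, adjusted p = 0.00142). Tnfrsf22 was at 5.64, 5.00 and 5.53 against 24.3, 24.5 and 21.3 CPM (-2.11 ± 0.43, adjusted p = 0.00177). Tnfrsf23 was at 4.12, 4.54 and 5.18 against 12.9, 15.3 and 18.5 CPM (-1.75 ± 0.41, adjusted p = 0.00540). The 3 neighbours are similar in sequence, and reads may have been split between them.

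Pattern recognition receptors and their adaptors were higher with IFNG in 21 of 44 cases (14 robust), with a median of 1.44, and none was called lower (1 with the replicate block). Tlr12 and Tlr9, both receptors of endosomes, had the largest differences among its robust members. Tlr12 (chromosome 4, 128615446 to 128618619), a receptor for profilin of parasites, was at 21.8, 40.7 and 12.6 against 0, 0 and 0 CPM. It had 839 counts against 0, at least 357-fold higher when 3 counts over the IL4 libraries are taken as the floor (adjusted p = 1.24e-07). Tlr9 (chromosome 9, 106222598 to 106226876), the receptor for unmethylated CpG DNA, was at 139, 366 and 161 against 0.798, 1.29 and 1.33 CPM, 7.59 ± 0.62 (adjusted p = 1.87e-08). IFNG replicate 2 was the highest library in both. The nucleic acid sensors Zbp1 and Ifi205 completed the 4 largest. Zbp1 was at 635, 653 and 548 against 15.9, 11 and 4.30 CPM (5.88 ± 0.56). Ifi205 was at 4.12, 8.26 and 13.6 against 0.218, 0 and 0 CPM, with 3 counts over the IL4 libraries (ratio 125, interval 42.3 to 608), and has close relatives on chromosome 1.

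C-type lectins and scavenger receptors divided evenly, 7 higher and 7 lower of 32 (5 and 5 robust). The galactose-type lectin genes Mgl2 and Clec10a were lower with IFNG. Mgl2 was at 17.4, 14 and 9.33 against 918, 756 and 823 CPM (-5.94 ± 0.54, adjusted p = 7.32e-08). Clec10a was at 40.6, 27.2 and 25.4 against 592, 384 and 521 CPM (-4.0 ± 0.47, adjusted p = 2.27e-06), and Clec4b1 at 2.22, 1.74 and 1.81 against 19.5, 24.6 and 10.8 CPM (-3.23 ± 0.65). Among the higher members, the scavenger receptor Marco, which binds bacteria and particles, was at 49.4, 14.5 and 34 against 0.363, 0.552 and 0.190 CPM (6.42 ± 0.76, adjusted p = 4.74e-06). Scarf1, another scavenger receptor, was at 108, 154 and 58.6 against 31, 18.8 and 9.11 CPM (2.44 ± 0.54). The lectin gene Clec2d was at 27.5, 57.1 and 23.5 against 3.63, 3.43 and 1.52 CPM (3.65 ± 0.56). Clec9a, a receptor for exposed actin on dead cells, was at 2.79, 8.72 and 9.33 against 0, 0 and 0 CPM (at least 96.7-fold, adjusted p = 1.49e-05). Clec9a is also among the dendritic cell markers given above.

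Immunoglobulin-like, Fc and paired receptors were higher in 16 of 49 tested cases, 15 of them robust, and lower in 2. Slamf7, a self-binding receptor, was at 72.5, 163 and 231 against 0.943, 0.306 and 1.14 CPM (7.59 ± 0.66, adjusted p = 4.71e-08). Fcgr4, an activating receptor for IgG, was at 544, 390.2 and 531 against 2.76, 4.17 and 2.72 CPM (7.24 ± 0.61, adjusted p = 2.90e-08). Timd4, a receptor for phosphatidylserine on dying cells, was at 259, 684 and 397 against 4.42, 4.78 and 0.949 CPM (7.04 ± 0.79, adjusted p = 1.36e-06). The costimulatory ligand gene Cd86 was at 103, 171 and 302 against 3.77, 2.21 and 5.12 CPM (5.69 ± 0.56, adjusted p = 2.04e-07). Trem1, an amplifier of inflammatory signals, lay on the other side at 3.49, 1.16 and 2.33 against 26.8, 22.1 and 78.7 CPM (-4.16 ± 0.64, adjusted p = 8.72e-05), with IL4 replicate 3 highest.

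Chemoattractant and other G protein-coupled receptors had members on both sides. Of 21 chemokine and chemoattractant receptors 4 were higher (3 robust) and 5 lower (2 robust). Fpr2, a formyl peptide receptor, was at 227, 408 and 297 against 15.5, 5.03 and 1.77 CPM (5.38 ± 0.69, adjusted p = 8.03e-06). Ccrl2, an atypical receptor, was at 124, 129 and 70.0 against 14.7, 12.9 and 5.06 CPM (3.31 ± 0.50, adjusted p = 7.53e-05). On the lower side, S1pr1, a receptor for a sphingosine phosphate that guides exit from tissues, was at 90.2, 59.1 and 42.3 against 376, 217 and 239.7 CPM (-2.12 ± 0.45, adjusted p = 0.00258). Gpr183, a receptor for oxysterols, was at 16.9, 10.4 and 17.2 against 47.8, 59.6 and 84.3 CPM (-2.10 ± 0.43, adjusted p = 0.00177). Ch25h, which makes the oxysterol precursor of its ligand, was higher at 1274, 1925 and 1659.6 against 191, 89.7 and 222 CPM (3.27 ± 0.60, adjusted p = 5.66e-04). In the list of 55 G protein-coupled receptors, which also holds Gpr183, 10 were higher (6 robust) and 3 lower (2 robust). Gpr31b was at 19.9, 20.4 and 23.3 against 0.0725, 0.368 and 0.190 CPM (6.54 ± 0.78). The histamine receptor Hrh2 was at 9.83, 10.9 and 3.80 against 0.290, 0.613 and 0.759 CPM (3.84 ± 0.73) and the nicotinic acid receptor Hcar2 at 10.0, 32.6 and 27.8 against 3.05, 2.02 and 1.83 CPM (3.34 ± 0.61). P2ry1, a receptor for ADP, was lower at 0.0634, 0.582 and 0.432 against 2.68, 14.8 and 16.4 CPM (-5.03 ± 0.88, adjusted p = 3.47e-04).

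Adhesion molecules were found on both sides. Of 51 tested members 10 were higher (7 robust) and 4 lower (3 robust; 7 lower with the replicate block). Itgal, the alpha chain of LFA-1, was at 1459, 2338 and 1413 against 53.2, 34.9 and 27.6 CPM (5.49 ± 0.54, adjusted p = 1.80e-07). Vcam1, a ligand of integrins, was at 5.39, 14.4 and 12.1 against 0, 0.245 and 0.190 CPM (6.02 ± 0.75, adjusted p = 5.63e-06). On the other side, Itgb3 (chromosome 11, 104608000 to 104670476), the beta chain of the vitronectin receptor, was at 0.698, 0.349 and 0.259 against 39.4, 51.7 and 31.9 CPM, -6.45 ± 0.53 (adjusted p = 1.84e-08). Cdh1, the gene of E-cadherin, was at 0.127, 1.28 and 0.950 against 15.4, 11.5 and 26 CPM (-4.56 ± 0.67, adjusted p = 4.56e-05). Itgax, the gene of CD11c, was at 10.2, 12.8 and 6.39 against 106, 151 and 41.6 CPM (-3.35 ± 0.59, adjusted p = 4.13e-04). Among 28 receptor tyrosine kinases and plexins 6 were higher (3 robust) and 1 lower (0 with the replicate block). Flt4, the lymphatic VEGF receptor gene, was at 16.6, 26.2 and 10.4 against 0.0725, 0.368 and 0.190 CPM (6.28 ± 0.65, adjusted p = 3.98e-07). Axl, a receptor for apoptotic cells by way of GAS6, was at 84.5, 224 and 83.9 against 22.2, 25.5 and 4.74 CPM (2.90 ± 0.62, adjusted p = 0.00260).

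Intracellular signalling families had few robust members. MAP kinases and dual-specificity phosphatases had 7 higher and 1 lower members of 53 (2 lower with the replicate block), of which 3 higher ones were robust. Protein tyrosine phosphatases had 1 and 1 of 26, with the lower one robust. Dusp10, a phosphatase of stress kinases, was at 21.8, 35.1 and 27.2 against 4.79, 5.33 and 2.78 CPM (2.70 ± 0.50, adjusted p = 7.20e-04). Rasa4, a RAS GTPase-activating protein gene, was at 245, 303 and 75.8 against 43.1, 35.2 and 12.3 CPM (2.78 ± 0.54). Its relative Rasa3 lay on the other side at 11.6, 7.44 and 9.15 against 28.4, 31.8 and 36 CPM (-1.77 ± 0.39, adjusted p = 0.00333).

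Secreted regulators were higher in 14 of 46 cases, 12 of them robust, with a median of 0.76. Il12b, a subunit of interleukins 12 and 23, was at 9.20, 9.54 and 5.10 against 0, 0 and 0 CPM, with 286 counts against 0 (at least 122-fold, adjusted p = 2.67e-06). Il27, a subunit of the related interleukin-27, was at 74.6, 112 and 21.6 against 0.798, 1.16 and 0 CPM (6.70 ± 0.85, adjusted p = 1.18e-05). The cytokine inhibitor genes Il18bp and Il1rn were also among the largest. Il18bp, which binds interleukin-18, was at 163, 155 and 159 against 4.86, 4.41 and 1.52 CPM (5.46 ± 0.51, adjusted p = 8.90e-08). Il1rn, the interleukin-1 receptor antagonist, was at 1425, 1098 and 1444 against 86.9, 53.3 and 27.5 CPM (4.56 ± 0.59, adjusted p = 9.01e-06). Igf1, the insulin-like growth factor, was the single lower member (3 with the replicate block), at 17.6, 19 and 20.4 against 281, 361 and 264 CPM (-3.99 ± 0.47, adjusted p = 2.43e-06), with the 3 IFNG libraries within a narrow range.

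Enzymes of central metabolism were called on both sides. Acod1, which makes itaconate, was at 1070.1, 1117 and 1582 against 25.4, 11.5 and 6.26 CPM (6.45 ± 0.67, adjusted p = 3.98e-07). It was the single higher member of 41 enzymes of the tricarboxylic acid cycle and glutamine; 3 were lower (2 robust). Idh1, the cytosolic isocitrate dehydrogenase, was at 5.58, 3.49 and 7.43 against 43.9, 49.1 and 47.8 CPM (-3.08 ± 0.46, adjusted p = 5.18e-05). Glul, glutamine synthetase, was at 17, 11.9 and 8.90 against 75.6, 79.3 and 54.5 CPM (-2.47 ± 0.40, adjusted p = 1.60e-04). In the list of arginine, proline and polyamine enzymes 2 of 23 were higher and 3 lower (2 and 1 robust). Next to Nos2 and Arg1, Ass1, which regenerates arginine from citrulline, was at 2178, 1278 and 751 against 357, 208 and 126 CPM (2.61 ± 0.50, adjusted p = 8.40e-04). The glycolysis list had 4 higher and 0 lower members of 30 (2 robust). Gpd2, the mitochondrial glycerol phosphate dehydrogenase, was at 87.4, 104 and 144 against 22.8, 20.4 and 30.8 CPM (2.18 ± 0.53, adjusted p = 0.00680).

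Of 26 enzymes of tryptophan, NAD and one-carbon metabolism, 5 were higher (3 robust) and 4 lower (0 robust), with a median of 0.01. Cd38 (chromosome 5, 43868809 to 43912374), an NAD glycohydrolase on the cell surface, was at 15, 34.4 and 34.1 against 0.0725, 0 and 0 CPM. It had 928 counts against 1 (ratio 1185, interval 212 to 46869; adjusted p = 4.92e-08). Its paralogue Bst1 was at 53.8, 23.8 and 33.5 against 2.90, 3.13 and 2.72 CPM (3.66 ± 0.46, adjusted p = 5.64e-06). Nampt, which salvages nicotinamide to NAD, was at 73.1, 135 and 222 against 13, 11.5 and 21.2 CPM (3.23 ± 0.47, adjusted p = 4.36e-05). Of 40 nucleotide and nucleoside enzymes 7 were higher and 7 lower (6 and 4 robust). Upp1 (chromosome 11, 9118008 to 9136170), which splits uridine, was at 2415, 3286 and 1374 against 19.3, 22.3 and 13.7 CPM (7.0 ± 0.67, adjusted p = 1.28e-07). Entpd1, the gene of the ectonucleotidase CD39, was at 199, 375 and 357 against 3.92, 4.41 and 2.72 CPM (6.39 ± 0.56, adjusted p = 4.71e-08). Samhd1, which degrades deoxynucleotides, was at 188, 368 and 396 against 21.7, 35.6 and 31.4 CPM (3.42 ± 0.43). Tyms, which makes thymidylate, and Dut, which supplies its precursor, were lower. Tyms was at 10.9, 1.51 and 8.46 against 27.3, 41.1 and 46.7 CPM (-2.45 ± 0.62, adjusted p = 0.00960) and Dut at 13.4, 4.54 and 12.1 against 31, 48.2 and 52 CPM (-2.12 ± 0.47, adjusted p = 0.00352). Gda, the guanine deaminase, was at 3.74, 6.51 and 9.24 against 41.6, 33.8 and 51.7 CPM (-2.71 ± 0.46, adjusted p = 2.92e-04).

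The cyclooxygenase genes differed in opposite directions. Ptgs2 (chromosome 1, 150100031 to 150108234), the inducible form, was at 15.3, 31.2 and 65.7 against 2.25, 0.736 and 0.506 CPM, 5.01 ± 0.77 (adjusted p = 7.91e-05). Ptgs1 (chromosome 2, 36216742 to 36258593), the constitutive form, was at 5.58, 8.26 and 6.13 against 116, 66.1 and 155 CPM, -4.08 ± 0.58 (adjusted p = 3.12e-05). Neither pair of groups overlapped, which the naming rule required. Ptges, the prostaglandin E synthase, was at 54.9, 38.4 and 13.4 against 4.21, 4.05 and 1.52 CPM (3.45 ± 0.64, adjusted p = 6.60e-04). The phospholipase genes Pla2g7, at 117, 141 and 90.6 against 12.8, 14.1 and 3.10 CPM (3.54 ± 0.53), and Pla2g16, at 203, 179 and 216 against 18.9, 27.5 and 15.1 CPM (3.28 ± 0.42), were also higher. Daglb, which makes an endocannabinoid, was lower at 72.7, 46.5 and 22.2 against 320.5, 263 and 95.5 CPM (-2.26 ± 0.50, adjusted p = 0.00349). In all 5 of 36 members of this list were higher and 3 lower (4 and 2 robust). Of 66 sterol, fatty acid and sphingolipid enzymes 6 were higher and 9 lower, with a median of -0.40, the lowest of the 42 families; 5 of the higher and 2 of the lower ones were robust. The lower count fell to 3 without IL4 replicate 1 or IFNG replicate 2 and was 13 with the replicate block. Acsl1, which activates long-chain fatty acids, was higher at 171, 368 and 199 against 20.0, 18.6 and 15.2 CPM (3.78 ± 0.46, adjusted p = 4.24e-06), as was the ceramide synthase Cers6, at 40.0, 60.6 and 94.2 against 17, 15.5 and 15.6 CPM (2.02 ± 0.48, adjusted p = 0.00634). Idi1, an isomerase of the mevalonate route, was lower at 1.01, 0.233 and 1.04 against 4.93, 7.23 and 16 CPM (-3.56 ± 0.77, adjusted p = 0.00271).

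Sialyltransferase genes were found on both sides. St3gal5, which makes the ganglioside GM3, was at 456, 643 and 617 against 53.9, 57.7 and 80.1 CPM (3.16 ± 0.44, adjusted p = 2.23e-05). St6gal1, which adds sialic acid to N-glycans, was lower at 1.27, 1.74 and 0.864 against 12, 20.2 and 28.4 CPM (-3.97 ± 0.59, adjusted p = 5.48e-05). Galnt9, a transferase that starts O-glycans, had no count in any IFNG library and was at 8.63, 12.8 and 2.21 CPM with IL4, at least 94.5-fold lower with IFNG (adjusted p = 1.94e-04). IL4 replicate 3 was the lowest of its libraries. Chst10, a sulfotransferase, was at 1.40, 1.40 and 2.42 against 7.76, 16.3 and 12.8 CPM (-2.81 ± 0.58). Ext1, a heparan sulfate polymerase gene, was higher at 80.9, 139.9 and 108 against 22, 22.8 and 20.1 CPM (2.34 ± 0.40, adjusted p = 2.92e-04). The list of glycosyltransferases and sulfotransferases held 9 higher and 7 lower members of 81 (4 and 4 robust).

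Proteases and their inhibitors had 17 higher (12 robust) and 7 lower (6 robust) members of 89. The membrane-bound metalloproteinase genes Mmp25 and Mmp14 were higher with IFNG. Mmp25 was at 147, 319 and 154 against 1.38, 0.368 and 0.316 CPM (8.23 ± 0.69, adjusted p = 2.90e-08) and Mmp14 at 84.8, 80.8 and 79.6 against 0.870, 1.72 and 0.127 CPM (6.47 ± 0.73, adjusted p = 1.31e-06). Mmp12, the macrophage elastase, was lower at 75.5, 74.7 and 119.8 against 1181, 572 and 666 CPM (-3.16 ± 0.49, adjusted p = 9.87e-05). The coagulation factor genes F7 and F10 were lower as well. F7 was at 0.0634, 0.814 and 0 against 14.9, 11.5 and 11.3 CPM (-5.58 ± 0.85, adjusted p = 7.53e-05) and F10 at 6.40, 5.12 and 3.28 against 68.3, 71 and 28.9 CPM (-3.50 ± 0.48, adjusted p = 1.89e-05). The lysosomal protease gene Ctsl was lower at 65.3, 22.2 and 75.2 against 343, 533 and 463 CPM (-3.04 ± 0.71, adjusted p = 0.00529). Serpinb9, the inhibitor of granzyme B, was higher at 58.2, 88.3 and 105 against 2.61, 3.74 and 7.53 CPM (4.17 ± 0.53, adjusted p = 7.74e-06). So was Serpina3i, a member of a cluster of close copies, at 154, 139.8 and 171 against 3.19, 1.41 and 0.886 CPM (6.40 ± 0.59).

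Among redox genes 5 of 57 were higher and 5 lower (3 and 3 robust). Prdx5, a peroxiredoxin, was at 6393, 5933 and 2487 against 369, 366 and 122 CPM (4.11 ± 0.55, adjusted p = 1.52e-05). Sod2, the mitochondrial superoxide dismutase, was at 1689.7, 1096 and 1008 against 132, 192 and 85.9 CPM (3.21 ± 0.58, adjusted p = 5.38e-04). Cybb, the catalytic subunit of the phagocyte oxidase, was at 393, 728 and 1394 against 117, 106 and 93.7 CPM (2.99 ± 0.54, adjusted p = 4.73e-04). Gpx1, a glutathione peroxidase, was lower at 1383, 838 and 1038 against 4628, 3825 and 2699 CPM (-1.77 ± 0.42, adjusted p = 0.00591). Lower too was Dhrs3, a retinaldehyde reductase, at 205, 108 and 66.2 against 1252, 1114 and 945 CPM (-3.13 ± 0.46, adjusted p = 5.16e-05). The list also held Tmem26, which is not known as a redox enzyme. It was at 0.0634, 0.116 and 0 against 63.4, 48.7 and 69.3 CPM, with 2 counts over the IFNG libraries against 2764 (ratio 1082, interval 299 to 8938; adjusted p = 5.23e-09).

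PARP and Schlafen genes had the largest called share of the 42 families, 11 higher of 18 (10 robust) and 0 lower, with a median of 2.38. Slfn1, which restrains growth in T cells, was at 17.8, 37.3 and 26.8 against 0, 0 and 0 CPM, with 911 counts against 0 (at least 388-fold, adjusted p = 1.26e-07). Parp8, a mono-ADP-ribosyltransferase gene, was at 7.04, 19.7 and 18.5 against 1.02, 0.981 and 1.90 CPM (3.52 ± 0.57, adjusted p = 1.65e-04). The Schlafen genes are close copies whose reads may have been split. Ubiquitin-like modifiers, E3 ligases and proteasome genes had 29 higher (14 robust) and 8 lower (4 robust) of 255, with a median of 0.25. Isg15, a ubiquitin-like modifier, was at 516, 1054 and 769 against 10.5, 16.1 and 7.15 CPM (6.11 ± 0.63, adjusted p = 3.31e-07). The E3 ligase gene Cblb, an inhibitor of immune receptor signals, was lower at 11.2, 19 and 10.1 against 37.8, 56.5 and 61.9 CPM (-1.96 ± 0.40, adjusted p = 0.00180). Chromatin enzymes stood at the other end. Of 98 histone and DNA modifying enzymes 4 were higher and 1 lower (4 lower with the replicate block), none of them robust. Dnmt3a, a DNA methyltransferase named for its level, was at 102, 199.9 and 108 against 251, 317 and 132 CPM and was not called (-0.77 ± 0.46, adjusted p = 0.369).

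Transporters of ions and metals were called more often than those of organic solutes, without a test of that difference. Of 51 tested ion and metal carriers 10 were higher (7 robust) and 2 lower (4 with the replicate block), with a median of 0.62. Of 104 carriers of amino acids, peptides and other organic solutes 8 were higher (5 robust) and 4 lower (2 robust), with a median of 0.07. The chloride cotransporter genes Slc12a5 and Slc12a2 were higher with IFNG. Slc12a5 was at 22.6, 7.91 and 12.5 against 0.290, 0.552 and 0.0633 CPM (5.51 ± 0.94, adjusted p = 2.88e-04) and Slc12a2 at 11.2, 32.7 and 24.4 against 0.870, 0.858 and 1.71 CPM (4.29 ± 0.53, adjusted p = 5.03e-06). Slc8a1, a sodium-calcium exchanger, was at 32.2, 73.4 and 62 against 5.73, 7.78 and 7.40 CPM (3.0 ± 0.44). Slc30a1, the zinc exporter of the plasma membrane, was at 16, 36.8 and 39.3 against 4.86, 4.66 and 7.53 CPM (2.43 ± 0.53, adjusted p = 0.00319). Slc9a3r2, a scaffold protein of sodium-hydrogen exchangers that carries no ion itself, had no count with IFNG and was at 14.1, 14.5 and 1.58 CPM with IL4, at least 119-fold lower with IFNG (adjusted p = 1.26e-04).

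Carriers of organic solutes included a glucose transporter on each side. Slc2a6 was at 4142, 3631 and 1021 against 771, 346 and 208 CPM (2.73 ± 0.55, adjusted p = 0.00142) and Slc2a8 at 18, 6.86 and 3.97 against 55.2, 38.1 and 36.9 CPM (-2.16 ± 0.51, adjusted p = 0.00552). IFNG replicate 3 and IL4 replicate 3 were the lowest of their groups in both. The anion carrier Slco3a1 was at 234, 458 and 239 against 12.5, 8.95 and 5.57 CPM (5.11 ± 0.49, adjusted p = 1.51e-07). Slc16a3, which exports lactate, was at 434, 597 and 188 against 106, 43.5 and 62.4 CPM (2.53 ± 0.48, adjusted p = 8.16e-04). Slc23a2, which takes up ascorbate, was at 470.3, 750.4 and 594 against 181, 105 and 104 CPM (2.22 ± 0.47, adjusted p = 0.00219). Mitochondrial carriers had 3 higher and 0 lower members of 41 (2 robust). Slc25a37, a mitochondrial iron importer, was at 25.1, 23.4 and 30.9 against 5.73, 3.31 and 3.29 CPM (2.69 ± 0.47). Slc25a12, an aspartate-glutamate carrier, was at 285, 383 and 288 against 60.0, 58.8 and 60.5 CPM (2.42 ± 0.43). Among 30 ATP-binding cassette transporters 3 were higher and 1 lower (3 with the replicate block), each of these 4 robust. Abcg1, which exports cholesterol, was at 144, 534 and 206 against 55, 50.0 and 36.8 CPM (2.64 ± 0.57, adjusted p = 0.00271). Abcd2, a peroxisomal carrier of fatty acids, was at 0, 0 and 0.173 against 3.63, 9.81 and 12.3 CPM, with 2 counts against 404 (ratio 158, interval 43.5 to 1310.3; adjusted p = 1.52e-04).

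Channels and pumps had calls on both sides. Of 60 channels 6 were higher, all of them robust, and 5 lower (3 robust). Clic5, a chloride intracellular channel gene, was at 11.7, 16.5 and 13.7 against 0, 0.245 and 0 CPM (7.14 ± 0.82, adjusted p = 1.79e-06). The potassium channel gene Kcna3 was at 13.2, 30.7 and 9.24 against 4.57, 2.45 and 2.21 CPM (2.52 ± 0.54) and the volume-regulated channel subunit Lrrc8c at 42.2, 99.6 and 82.7 against 10.9, 6.62 and 14.1 CPM (2.83 ± 0.49). The calcium release channel gene Ryr1 was lower at 2.03, 1.98 and 0.864 against 14.9, 23 and 8.92 CPM (-3.26 ± 0.62, adjusted p = 8.54e-04), as was the endolysosomal channel gene Tpcn1, at 20.9, 17.2 and 14.1 against 115, 91.9 and 63.4 CPM (-2.37 ± 0.43, adjusted p = 5.48e-04). Of 40 P-type and vacuolar ATPase genes 4 were higher and 3 lower (1 and 2 robust). Both robust lower ones encode subunits of the membrane sector of the vacuolar proton pump. Atp6v0d2 was at 0.824, 1.40 and 1.90 against 23.3, 29.6 and 16.3 CPM (-4.07 ± 0.73, adjusted p = 4.95e-04) and Atp6v0a1 at 104, 84.4 and 47.2 against 376, 313 and 181 CPM (-1.88 ± 0.45, adjusted p = 0.00611). Atp8a1, a phospholipid flippase, was higher at 25.4, 45.8 and 75.4 against 5.87, 5.03 and 10.4 CPM (2.78 ± 0.53). In the list of lipid-binding genes 7 of 32 were higher and 2 lower (5 and 1 robust). Mylip, a ligase that degrades the LDL receptor, was at 26.2, 38.4 and 37.8 against 1.60, 3.37 and 3.04 CPM (3.67 ± 0.51, adjusted p = 2.38e-05). Lcn2, a siderophore-binding protein, was at 11, 1.51 and 8.55 against 0.218, 0.123 and 0.0633 CPM (5.61 ± 0.92, adjusted p = 2.52e-04), with IFNG replicate 2 lowest.

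**Figure D3:**
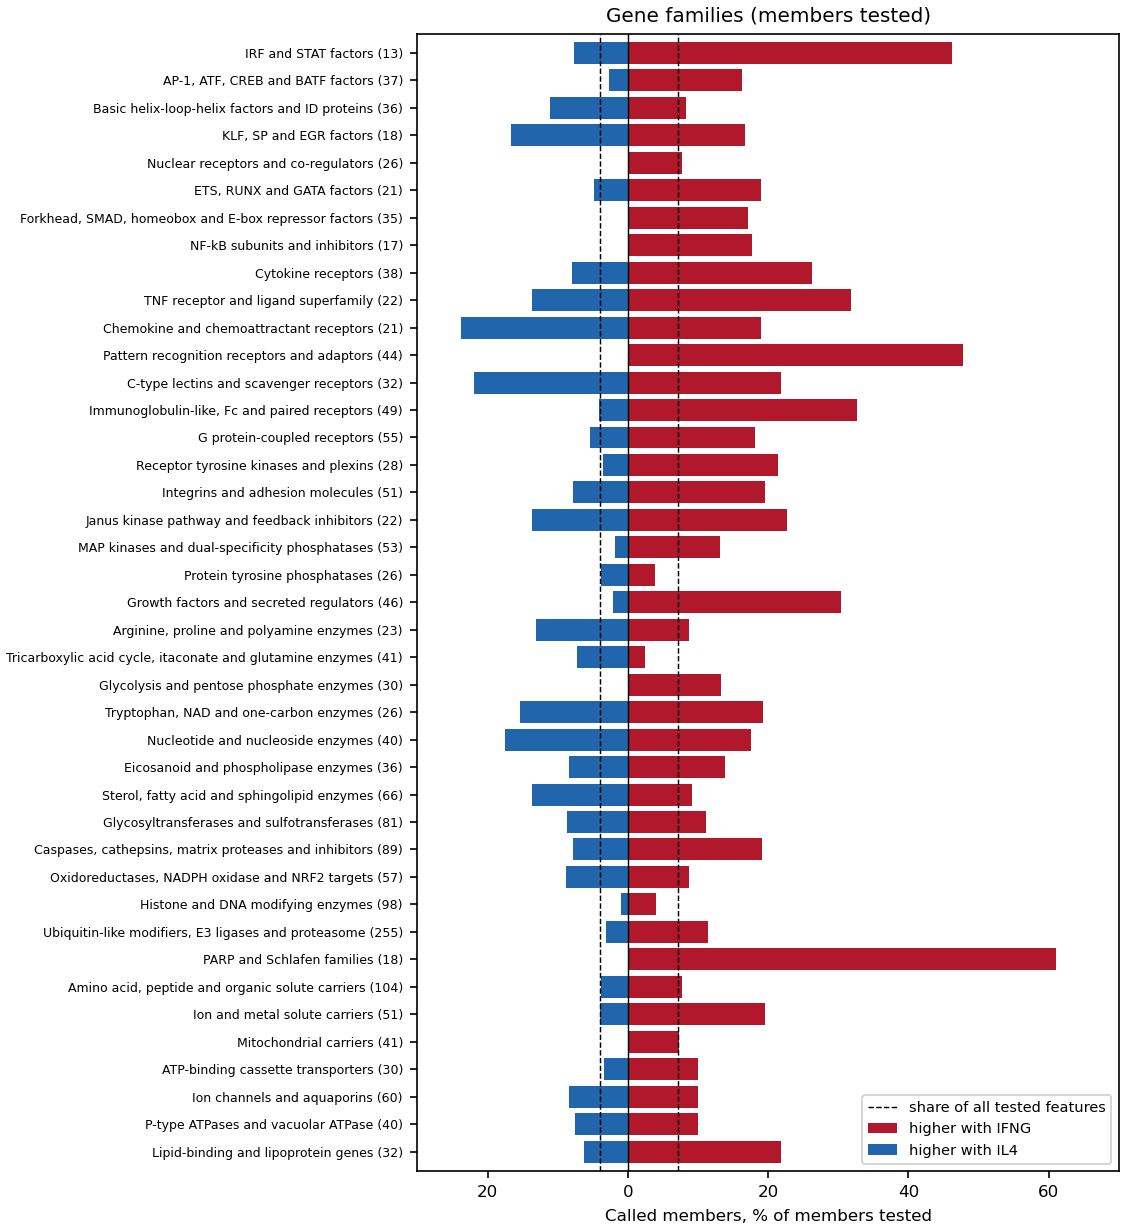
Called members of 41 of the 42 families as a percentage of its tested members (number in brackets), to the right for genes higher with IFNG and to the left for genes higher with IL4; dashed lines mark the shares of all tested features, 7.08% and 3.93%. PARP and Schlafen genes, pattern recognition receptors and IRF and STAT factors reach furthest to the right, and chemoattractant receptors and lectins furthest to the left.

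Of the 42 families, 35 had called members on both sides, and 7 had higher members and no lower one. With 7.08% of all tested features higher and 3.93% lower, a long list can hold calls on both sides whatever its members. The family medians were above that of all tested features (0.04) in 32 families and below it in 10. The families share members with one another and were drawn up with earlier results of these data known, so these counts describe the lists and are no test of them.

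**Figure D4:**
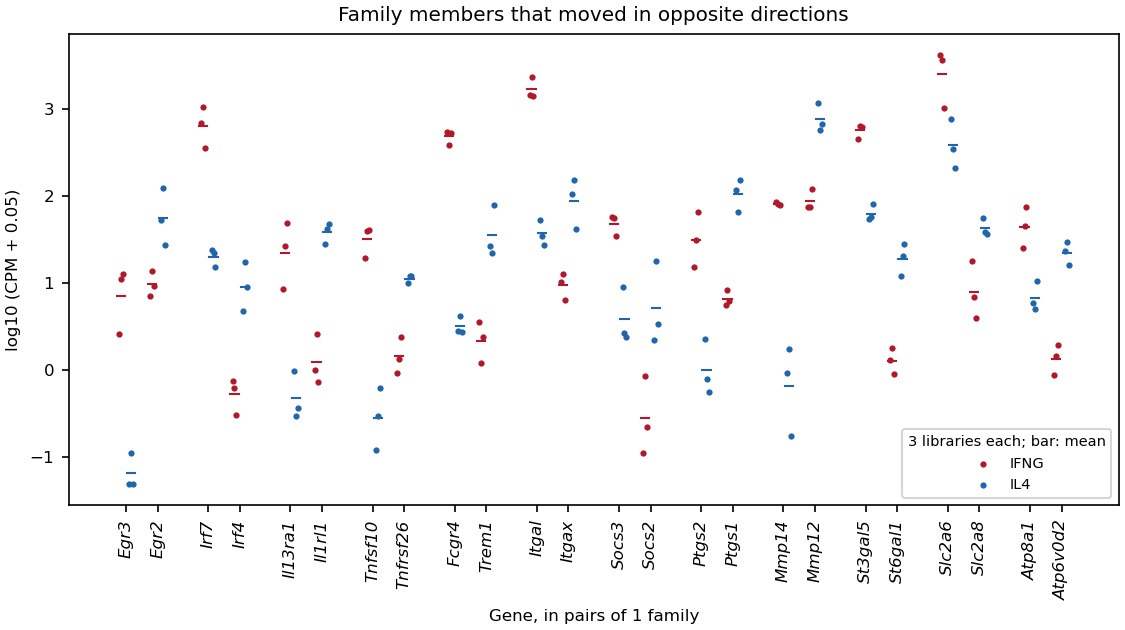
Log10 of CPM plus 0.05 in each of the 3 IFNG and 3 IL4 libraries (points) with the mean of these log values (bars), for 12 pairs of genes from the same family. In each pair the gene on the left was higher with IFNG and the gene on the right was higher with IL4. In none of the 24 genes did the groups overlap, which the naming rule required.

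Outside the families, the largest differences were in genes that were near 0 under one cytokine. Msx3 (chromosome 7, 140046157 to 140049088), a homeobox gene of the developing nervous system that the homeobox list did not hold, had no count in any IFNG library and 2560 with IL4, at 31.9, 47.6 and 85 CPM (at least 668-fold lower with IFNG, adjusted p = 1.39e-06). Lipn, a lipase family gene, was at 0 with IFNG and 7.18, 3.00 and 17.5 CPM with IL4 (at least 111-fold). Cldn11, a tight junction gene, was at 0 and 15.7, 4.41 and 6.58 CPM (at least 102-fold). Matk, a kinase that inhibits SRC family kinases, was at 2.73, 1.74 and 0.0864 against 89.1, 76.8 and 24.7 CPM (-5.35 ± 0.77, adjusted p = 3.39e-05). Ephb6, an ephrin receptor gene, was at 0.254, 0.582 and 0.259 against 20.1, 10.2 and 11.3 CPM (-5.26 ± 0.69, adjusted p = 1.01e-05). On the other side, Chrm3, a muscarinic acetylcholine receptor, was at 5.71, 21.5 and 15.5 CPM with IFNG and 0 with IL4 (at least 193-fold, adjusted p = 3.41e-06). Klrk1, the gene of an activating receptor of natural killer cells, was at 2.73, 6.86 and 41.2 CPM and 0 (at least 247-fold, adjusted p = 2.98e-05), with IFNG replicate 3 far above the others. Of the 8 T and NK cell markers in the files, Cd3e, Cd3g, Cd8a, Nkg7, Ncr1 and Gzma were at 0 in all 6 libraries, and Cd3d and Klrb1c were at no more than 0.127 and 0.245 CPM in any. In all, 23 called features had no count in the IL4 libraries and 19 none in the IFNG libraries, of which all 23 and 14 were robust.

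Some genes higher with IFNG lay side by side. Placing the 9362 tested features with a single RefSeq position in chromosome order gave 18 stretches of 4 or more neighbouring tested genes called in the same direction, with 93 genes in all, 76 of them robust. All 18 were higher with IFNG and none lower. The longest held 10 genes of the class II region on chromosome 17 between 34119693 and 34316674, from H2-DMa to H2-Eb1, with the proteasome genes Psmb8 and Psmb9 and the peptide transporters Tap1 and Tap2 inside it. In this stretch 5 genes were robust, and H2-DMb2, H2-DMb1, Psmb8, H2-Aa and H2-Eb1 were not. Next came 7 genes on chromosome 1 between 173349547 and 174042936, from the DNA sensor Aim2 through Ifi204, Mndal, Ifi203, Ifi202b and Ifi205 to the olfactory receptor gene Olfr433, which had 52 counts with IFNG and 0 with IL4. Other stretches were Sp110, Sp140 and Sp100 with 3 predicted genes on chromosome 1 (85088139 to 85709998), the 5 complement protease genes C1rl, C1ra, C1s1, C1rb and C1s2 on chromosome 6 (124493113 to 124636085), the Ly6 genes Ly6e, Ly6i, Ly6a, Ly6c1 and Ly6c2 on chromosome 15 (74955025 to 75112066), and Clec2d, Cd69, Clec12a and Clec9a on chromosome 6 (129180615 to 129424764). A stretch on chromosome 4 (156165290 to 156228542) joined Agrn, Isg15, Perm1 and Plekhn1. In these other stretches Aim2, 2 of the predicted genes beside Sp110, Clec12a and Agrn were not robust. Many of these neighbours are duplicated genes with similar sequence, so that reads may have been split between copies, and the share of stretches that chance would give was not tested.

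The same contrast on polysome-associated mRNA, from the same cell preparations, is given here beside total mRNA. Of the 202 named genes called in total mRNA, 198 were also called there in the same direction. Most of these genes were chosen as large robust differences, so this share does not stand for all called features, for which it is not given here. Tlr9 differed by 7.12 on the log2 scale in polysome-associated mRNA and by 7.59 in total mRNA, Itgb3 by -6.12 and -6.45, and Il13ra1 by 6.21 and 5.79. Other named genes lay further apart, such as Igf1 at -5.89 and -3.99, Irf7 at 3.78 and 5.10, and Gpr31b at 4.42 and 6.54. With edgeR none of these gaps between the preparations was called. The 4 without a call on polysomes were Mapk13, Slc12a5, Slc25a12 and Ryr1 (adjusted p = 0.146, 0.176, 0.0537 and 0.0532). The polysome libraries were shallower than those of total mRNA, with 2563955 to 8789480 counts. The single feature Lars2 took 1.78% to 29.3% of their counts, against 0.341% to 2.00% in total mRNA. How far depth and Lars2 limited calls on polysomes and between the preparations was not tested. No feature differed in its IFNG against IL4 difference between the preparations with edgeR at an adjusted p under 0.05, and DESeq2 called 1. An unadjusted edgeR p under 0.05 was found for 176 of the 10421 tested features, fewer than that threshold alone would give by chance.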

How the data were processed

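SmartSeq2 libraries of total mRNA and of polysome-associated mRNA from BMDMs were deposited as 1 table per sample with 19549 features. Each table holds raw counts and, per the file headers, TMM-normalized log2 values made by the authors; the counts were used here and the log2 values only checked. The submitters' processing notes name HISAT2, HISAT, limma and the build mm10; which tool counted the reads, and with which strand setting, is not given in these sources. Overlapping or neighbouring genes were joined by the authors in 830 features, 673 of them tested, per the file headers' feature names.

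All 12 libraries were fitted together with edgeR 4.0.16 (R 4.3.3; robust quasi-likelihood test, TMM scaling, 4 groups, edgeR's filter on low counts, 10421 features), and the IFNG minus IL4 contrast in total mRNA was adjusted by Benjamini-Hochberg over all of them at 0.05. The SE is the log2 difference divided by the root of F. The model was tested on simulated data. A gene is named where it had one of the 4 largest differences of its family in a direction among those called in the full fit and in all 6 fits without 1 library, with at least 5 CPM in 1 group and no overlap of groups; where a family had none, up to 2 were named by level. The 10 largest outside the families in each direction and fixed genes of the cytokine pathway were added, and most of the 209 such genes appear in the text. The lists and members were chosen with earlier results of these data known. Same-numbered IFNG and IL4 libraries of total mRNA deviated together (r = 0.52, 0.15 and 0.74 over 6984 features), although IFNG replicate 2 went closer with IL4 replicate 1 (r = 0.40) and IL4 replicate 2 with IFNG replicate 1 (r = 0.20). Since each of these same-numbered r was over 0.1, the numbers were taken as pairs and a replicate block over all 12 libraries was fitted as an alternative. Total and polysome-associated libraries of the same number and cytokine deviated together less evenly. Their r was 0.27, 0.43 and -0.07 with IFNG and 0.02, 0.40 and 0.05 with IL4. Across cytokines, r between total and polysome-associated libraries of the same number went down to -0.16. Other alternatives were DESeq2 1.42.0, RLE scaling, other filters, the 6 libraries alone, and joined features left out. Positions and promoter windows came from RefSeq (GRCm38.p6). Results for some items are not reported here.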

Additional observations from a re-analysis of the deposited data

How the results depend on the processing

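The count of features higher with IFNG ranged from 507 to 746 and that of lower ones from 239 to 477 when 1 library was left out, with the lowest lower count without IFNG replicate 2. The replicate block gave 850 higher and 584 lower features, DESeq2 854 and 583, RLE scaling 722 and 452, no filter on low counts 869 and 536 (of 13590 tested features), a minimum mean of 10 CPM 526 and 276 (of 6792), the 6 libraries alone 716 and 411, and joined features left out 709 and 404. The difference between polysome-associated and total mRNA was called in 0 features, in 5 without the filter and in 1 with DESeq2. Of 2671 values of named genes under these alternatives, 2662 stayed on the same side of the threshold and none changed sign. The other 9 were of Il4ra, Jak2, Tyk2 and Socs1, which were named whatever their value. Genes named by size had to be called in all 6 fits without 1 library, so their stability in those fits was set by the rule. The replicate block changed the call of Socs1 and of no other named gene. Of 84 family counts, 10 moved by more than 1.5 times with the block and up to 26 when a library was left out (IL4 replicate 2). Counts of small families thus depend on the setting. With 3 counts at 0.184 to 0.349 CPM, folds against a group at 0 are limited by depth.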
